A study of Mus musculus with 6 samples.

Results

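The genes described here code for the ligands, receptors, antagonists, Smad proteins and Id regulators of the TGF-beta, BMP and activin pathways. They were picked by gene symbol, and the rule itself uses no measured value. The symbols taken included those of the TGF-beta ligands, their receptors and Tgfbi, the numbered BMPs and GDFs, the BMP and activin receptors, the Smads, the inhibin subunits, Id1 to Id4, Mstn, Fst, Fstl1, Fstl3, Nog, Chrd, Grem1 and Ltbp1 to Ltbp4. This rule found 64 of the 23361 genes listed, and 49 of the 64 were tested by the authors' software.

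RNA was sequenced from 3 AUF1-null and 3 wild-type samples of cells sorted as satellite cells, which rebuild muscle fibres, on the surface proteoglycan Sdc4. They came from collagenase-digested hindlimb muscle of mice aged 4 months. The labels call the genotypes AUF1-null (KO) and wild type (WT), and the design note says that breeding went through C57BL/6 of 129 background. AUF1, coded by Hnrnpd, is an RNA-binding protein that recognises AU-rich sequence in many 3' UTRs. Neither the deleted part of the gene nor the number of mice behind each sample is given in the sources used here. The authors deposited 1 pooled value per gene for each condition, on the FPKM scale (fragments scaled by transcript length and by library size), under the names q2 and q1. The labels do not tie either name to a genotype. The name of the deposited table lists WT ahead of KO but does not match them to q2 or q1, so every comparison below names no genotype and sets q2 against q1. With pooled values alone, no SD and no n can stand beside a gene. Every level, log2 fold change (q2 over q1), p and q is the authors' own, and sums, shares and medians were computed from them.

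TGF-beta family ligands are secreted dimers that bring type II and type I receptor kinases together. The type I kinase then phosphorylates receptor Smads, which enter the nucleus with Smad4. TGF-beta and activins act mainly through Smad2 and Smad3, and BMPs through Smad1, Smad5 and Smad9. Smad6 and Smad7 inhibit the pathway from within, and the Id genes are classic BMP targets. In muscle, myostatin restrains growth, TGF-beta holds back myogenic differentiation and promotes fibrosis, and BMPs are known to sustain the proliferation of satellite cells.

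None of the 49 tested members was called, that is, had a Cuffdiff q below 0.05, and 1 of them, Bmpr2, had an unadjusted p below 0.05. Over all 14858 tested genes, 0.612% were called in the authors' deposited table, and 5.99% had a p below 0.05. That 1 gene is 2.04% of the tested members, a share below that of all tested genes. A p below 0.1 was listed for 4 members, Bmpr2, Smad5, Tgfb2 and Smad6, or 8.16% against 9.58% of all tested genes, and all 4 were listed lower in q2. The smallest difference that was called anywhere in the authors' deposited table, among genes above 0 in both conditions, was 2.50-fold. Only 1 tested member, Smad9, was listed with a difference that large, at values below 1 FPKM in both conditions.

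The members lay lower in q2 more often than higher, with small differences. Of the 49 tested members, 17 were listed higher and 32 lower in q2, or 65.3% lower, against 51.3% lower over all tested genes above 0 in both conditions. Their median log2 fold change was -0.22, with quartiles of -0.39 and 0.18, against a median of -0.01 and quartiles of -0.31 and 0.29 over all tested genes. Among the 18 members of at least 10 FPKM in both conditions, the largest log2 difference was 0.64 in size. Across the 64 members, 4 lay at 100 FPKM or more in both conditions and 21 below 1 FPKM in both.

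**Figure D1:**
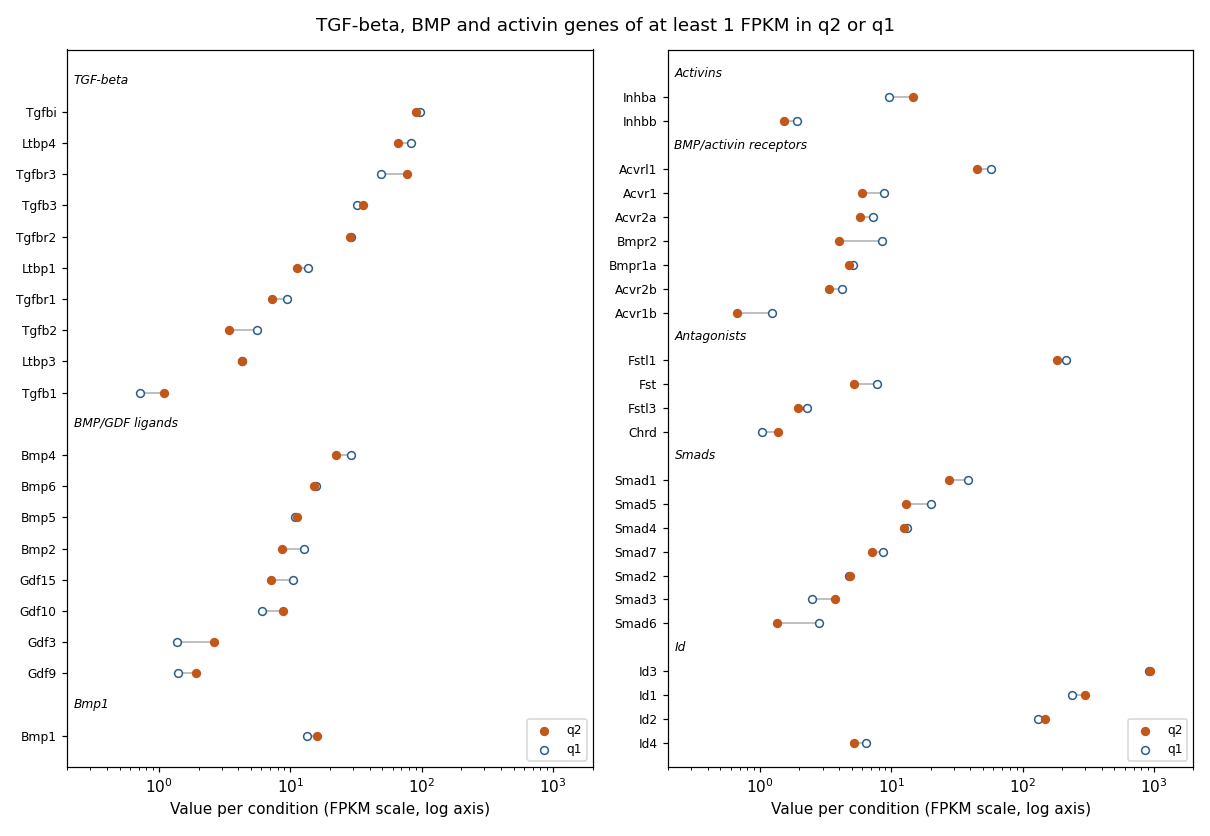
Level of each member of at least 1 FPKM in q2 or q1, by role, with the value of q2 as a filled point and that of q1 as an open point on a log axis of the FPKM scale, 1 pooled value per condition. Most pairs of points lie close together, and Id3, Id1, Fstl1 and Id2 stand at the high end.

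Markers of several cell types were present besides those of satellite cells. The marker lists were written with earlier results of these data known, so counts of called markers only describe the lists. Of the 12 satellite cell markers none was called, and Pax7, their defining transcription factor, stood at 0.85 FPKM in q2 and 1.16 FPKM in q1 in the authors' deposited table. Of these markers 7 were listed higher and 5 lower in q2, with a sum of 502 in q2 and 431 in q1. Sdc4, the protein sorted on, was at 269.7 FPKM in q2 and 172.9 FPKM in q1 in the authors' deposited table, and the other 11 summed to 232 in q2 and 258 in q1. The 11 endothelial markers were all listed lower in q2, with a summed value of 2663 in q2 against 3126 in q1 and a median log2 fold change of -0.26. The 9 fibroblast and fibro-adipogenic markers summed to 5726 in q2 and 6618 in q1, and 7 of them were listed lower in q2. The 10 neutrophil markers summed to 14624 in q2 and 1125 in q1, and 7 of them were called higher. The 8 tested macrophage markers summed to 2411 in q2 and 1130 in q1, with 5 listed higher, 2 of them called, and 3 lower. Their log2 fold changes ran from -0.75 for Csf1r to 3.50 for Ly6c2. Without Lyz2, the most abundant, they summed to 907 in q2 and 497 in q1. Tenocyte markers summed to 274 in q2 and 364 in q1, and Schwann cell markers to 1463 in q2 and 1385 in q1. The 6 cartilage markers summed to 17.2 in q2 and 39.9 in q1. Most of that sum was Comp, which was not called, and the others summed to 1.40 in q2 and 8.71 in q1. Of these, Acan, Clec3a, Col11a1 and Col2a1 were called lower in q2, and Col9a1 was listed higher without being called. No listed marker was at 0 in both conditions, and Acan and Clec3a of cartilage were at 0 in q2. In such bulk samples fewer cells of a type and less RNA per cell cannot be told apart, and the part of these cell types in the values of the members was not tested. Hnrnpd itself was listed at 5.59 FPKM in q2 and 7.50 FPKM in q1 in the authors' deposited table without passing (Cuffdiff q = 0.999), which does not tell the genotypes apart.

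Among the TGF-beta ligands, Tgfb3 was by far the most abundant message. It was listed at 35.5 FPKM in q2 and 31.9 FPKM in q1 in the authors' deposited table, a log2 fold change of 0.16 (Cuffdiff p = 0.660). Tgfb2 stood at 3.37 FPKM in q2 and 5.51 FPKM in q1 in the authors' deposited table, a log2 fold change of -0.71 (Cuffdiff p = 0.0765, q = 0.971). Tgfb1, the isoform best known from immune cells and fibrosis, stood at 1.09 FPKM in q2 and 0.72 FPKM in q1 in the authors' deposited table. Tgfb3 made up 88.8% of the summed level of these ligands in q2 and 83.6% in q1, and Tgfb2 8.45% in q2 and 14.5% in q1.

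The TGF-beta receptors were listed in the same order in both conditions, with the co-receptor betaglycan on top. Tgfbr3, which codes for betaglycan and presents ligand to the signalling receptors, was at 76.5 FPKM in q2 and 49.2 FPKM in q1 in the authors' deposited table. The log2 fold change of Tgfbr3 was 0.64 in the authors' deposited table (Cuffdiff p = 0.117, q = 0.999). Tgfbr2, the type II receptor, was at 28.3 FPKM in q2 and 29.0 FPKM in q1 in the authors' deposited table, nearly level. Tgfbr1, its type I partner, was at 7.20 FPKM in q2 and 9.46 FPKM in q1 in the authors' deposited table. The 2 signalling receptors thus lay level or lower in q2 where the co-receptor lay higher, and none of the 3 passed.

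Latent TGF-beta binding proteins hold the ligand in the matrix until it is released. Ltbp4 was listed at 66.2 FPKM in q2 and 82.3 FPKM in q1 in the authors' deposited table and made up 80.8% of the summed Ltbp level in q2 and 81.9% in q1. Ltbp1 followed at 11.1 FPKM in q2 and 13.5 FPKM in q1 in the authors' deposited table. Ltbp3 was level, at 4.24 FPKM in q2 and 4.28 FPKM in q1, and Ltbp2 stood at 0.36 FPKM in both conditions of the authors' deposited table, untested. The order of the Ltbp genes was the same in both conditions. Tgfbi, a secreted matrix protein induced by TGF-beta, was at 89.7 FPKM in q2 and 97.4 FPKM in q1 in the authors' deposited table. Of the 10 tested genes of this TGF-beta group, 3 were listed higher and 7 lower in q2, none with a Cuffdiff p below 0.05, with a median log2 fold change of -0.08.

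The BMP ligand genes Bmp4, Bmp6, Bmp5 and Bmp2 carried nearly all of the BMP message. Bmp4 was listed at 22.4 FPKM in q2 and 28.9 FPKM in q1 in the authors' deposited table, a log2 fold change of -0.37 (Cuffdiff p = 0.313). Bmp2 stood at 8.66 FPKM in q2 and 12.7 FPKM in q1 in the authors' deposited table, a log2 fold change of -0.55 (Cuffdiff p = 0.202). Bmp6, known for its control of iron in the liver, was at 14.98 FPKM in q2 and 15.6 FPKM in q1 in the authors' deposited table. Bmp5 was at 11.2 FPKM in q2 and 10.9 FPKM in q1 in the authors' deposited table. These values put Bmp4 and Bmp2 lower in q2 and Bmp6 and Bmp5 nearly level. Gm26903, another annotated gene, shares 46.7% of the exon bases of Bmp5, and Bmp4 shares its deposited position with another gene, so both levels are uncertain. Bmp3 and Bmp7 lay below 1 FPKM in both conditions.

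Among the growth differentiation factors, Gdf15 and Gdf10 were the most abundant and lay in opposite directions. Gdf15, a stress-induced cytokine, was listed at 7.07 FPKM in q2 and 10.4 FPKM in q1 in the authors' deposited table, a log2 fold change of -0.56 (Cuffdiff p = 0.307). Gdf10, also called BMP3b, was at 8.75 FPKM in q2 and 6.02 FPKM in q1 in the authors' deposited table, a log2 fold change of 0.54 (Cuffdiff p = 0.236). Gdf3, known from pluripotent cells and adipose macrophages, was at 2.61 FPKM in q2 and 1.38 FPKM in q1 in the authors' deposited table, a log2 fold change of 0.92 (Cuffdiff p = 0.218). Gdf15 was thus listed lower in q2, and Gdf10 and Gdf3 higher, without passing. Gdf9, an oocyte factor, was at 1.92 FPKM in q2 and 1.39 FPKM in q1 in the authors' deposited table. Gdf11, the closest relative of myostatin, was at 0.19 FPKM in q2 and 0.45 FPKM in q1 in the authors' deposited table, where its log2 fold change of -1.22 became -0.28 once 1 was added to both values. Over the 11 tested BMP and GDF ligands, 5 were listed higher and 6 lower in q2, with a median log2 fold change of -0.05. Bmp1, which despite its name is a protease that processes procollagens and cleaves chordin, was at 15.9 FPKM in q2 and 13.4 FPKM in q1 in the authors' deposited table.

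Inhba stood well above the other activin and inhibin subunit genes. Inhba, whose product dimerises to activin A, was listed at 14.6 FPKM in q2 and 9.59 FPKM in q1 in the authors' deposited table, a log2 fold change of 0.61 (Cuffdiff p = 0.159, q = 0.999). Inhbb, the subunit of activin B, was at 1.54 FPKM in q2 and 1.90 FPKM in q1 in the authors' deposited table, and both it and the inhibin alpha subunit were listed slightly lower in q2. Inha, that subunit, was at 0.38 FPKM in q2 and 0.45 FPKM in q1 in the authors' deposited table. Mstn, which codes for myostatin, was at 0.25 FPKM in q2 and 0.36 FPKM in q1 in the authors' deposited table and was not tested. Myostatin is made mainly by muscle fibres, and markers of fibres were present: the 6 on their list summed to 3258 in q2 and 1702 in q1. All 6 were listed higher in q2, and none was called.

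All 7 tested receptor genes for BMPs and activins were listed lower in q2, as were 51.3% of all tested genes above 0 in both conditions. Of the 7, 1 had a Cuffdiff p below 0.05. That gene was Bmpr2, the type II receptor for BMPs, at 3.99 FPKM in q2 and 8.46 FPKM in q1 in the authors' deposited table. The difference of 2.12-fold, a log2 fold change of -1.09, had a p of 0.0168 in the authors' deposited table and did not pass the adjustment (Cuffdiff q = 0.562). Among all tested genes of that table, 2.27% were listed lower in q2 with a p below 0.05. Bmpr2, the only such member, is 2.04% of the 49 tested members, a similar share. The log2 fold change was -0.92 with 1 added to both values. The gene lies at chr1:59764637-59870859 (GRCm38) in the deposited table. GENCODE vM21 puts it on the + strand with its 3' end at 59879014. Most of its annotated 3' UTR of 8529 bases thus lies outside the gene model behind these values.

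The most abundant of these receptors was Acvrl1, the type I receptor ALK1 of endothelial cells, which binds BMP9 and BMP10. Acvrl1 was listed at 45.1 FPKM in q2 and 57.6 FPKM in q1 in the authors' deposited table, a log2 fold change of -0.35 (Cuffdiff p = 0.337). It made up 70.3% of the summed level of the 7 type I receptor genes, Tgfbr1 included, in q2 and 69.9% in q1. Beside it, the median log2 fold change of the 11 endothelial markers was -0.26, as given above. Their log2 fold changes ran from -1.09 for Vwf to -0.09 for Kdr in the authors' deposited table, and none was called. Endoglin, the co-receptor of ALK1 coded by Eng, stood at 98.7 FPKM in q2 and 125.9 FPKM in q1 in the authors' deposited table, a log2 fold change of -0.35. Of the ligands of ALK1, Bmp10 was listed at 0 in both conditions and Gdf2, which codes for BMP9, at 0.17 FPKM in q2 and 0 in q1 in the authors' deposited table, and neither was tested.

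The remaining receptors had single-digit levels. Acvr1, the type I BMP receptor ALK2, was listed at 5.99 FPKM in q2 and 8.87 FPKM in q1 in the authors' deposited table, a log2 fold change of -0.57 (Cuffdiff p = 0.185). Bmpr1a, the type I BMP receptor ALK3, was at 4.73 FPKM in q2 and 5.07 FPKM in q1 in the authors' deposited table, nearly level. Both activin type II receptors, which also bind myostatin, were listed slightly lower in q2. Acvr2a was at 5.81 FPKM in q2 and 7.21 FPKM in q1 in the authors' deposited table, at a deposited position shared with another gene. Acvr2b was at 3.33 FPKM in q2 and 4.20 FPKM in q1 in the authors' deposited table. Acvr1b, the type I activin receptor ALK4, was at 0.67 FPKM in q2 and 1.23 FPKM in q1 in the authors' deposited table, where the log2 fold change of -0.87 became -0.42 with 1 added to both values. With Tgfbr1 and Tgfbr2 included, 9 type I and type II receptor genes were tested and all 9 were listed lower in q2, with a median log2 fold change of -0.35. Of all tested genes above 0 in both conditions, 51.3% were listed lower. Tgfbr2 and Bmpr1a, among the 9, were nearly level, with log2 fold changes of -0.04 and -0.10. Bmpr2 made up 9.63% of the summed level of the 4 type II receptors in q2 and 17.3% in q1, and Tgfbr2 68.3% in q2 and 59.4% in q1.

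**Figure D2:**
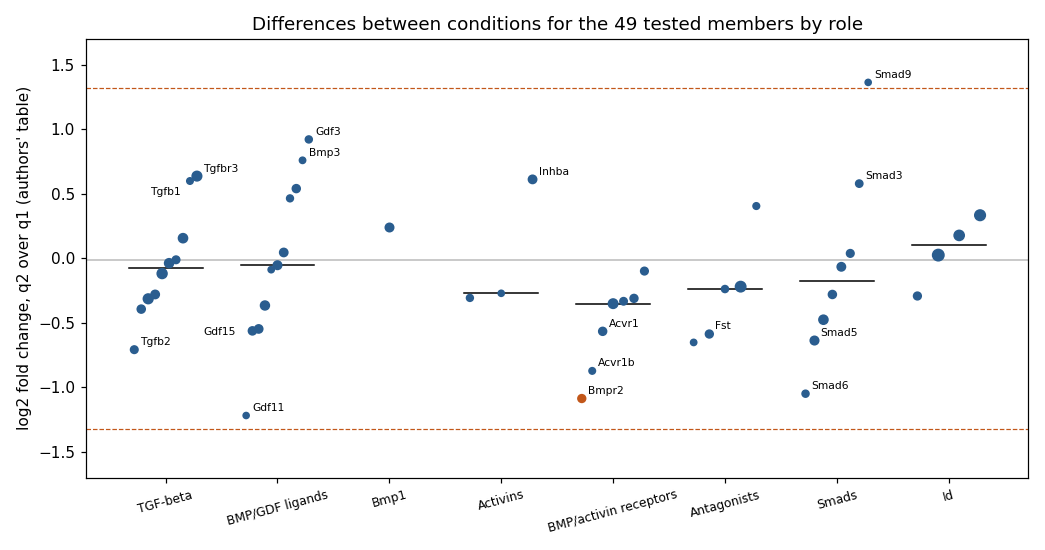
Log2 fold change of q2 over q1 from the authors' deposited table for the 49 tested members by role, with larger points for higher levels, a black line at each group's median, a grey line at the median of all tested genes (-0.01) and dashed lines at the smallest difference called for any gene (1.32 in size). All tested receptors for BMPs and activins lie below 0, and Bmpr2, in orange, is the only member with a p below 0.05.

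Among the extracellular antagonists, Fstl1 stood far above the others. Fstl1, a secreted glycoprotein of mesenchymal cells, was listed at 182 FPKM in q2 and 212 FPKM in q1 in the authors' deposited table, a log2 fold change of -0.22 (Cuffdiff p = 0.594). Fst, which codes for follistatin, the binding protein that neutralises activin and myostatin, was at 5.21 FPKM in q2 and 7.82 FPKM in q1 in the authors' deposited table, a log2 fold change of -0.59 (Cuffdiff p = 0.215). Inhba, whose product follistatin binds, was thus listed higher in q2 and Fst lower, although neither passed. The BMP antagonists were scarce. Chrd was at 1.36 FPKM in q2 and 1.03 FPKM in q1 in the authors' deposited table, at a deposited position shared with another gene. Nog and Grem1 lay below 1 FPKM in both and were not tested. Fstl3 was at 1.93 FPKM in q2 and 2.28 FPKM in q1 in the authors' deposited table, but 46 genes, itself included, have the same deposited position, so its level is uncertain.

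Among the Smads, the BMP-type receptor Smads held most of the message, and Smad1 and Smad5 were listed lower in q2. Smad1 was at 27.7 FPKM in q2 and 38.5 FPKM in q1 in the authors' deposited table, a log2 fold change of -0.48 (Cuffdiff p = 0.199). Smad5 was at 12.8 FPKM in q2 and 20.0 FPKM in q1 in the authors' deposited table, a log2 fold change of -0.64 (Cuffdiff p = 0.0707, q = 0.945). Smad9, the third BMP-type Smad, was at 0.54 FPKM in q2 and 0.21 FPKM in q1 in the authors' deposited table (Cuffdiff p = 0.189), and its log2 fold change of 1.36 was 0.35 with 1 added to both values. Summed, the BMP-type Smads came to 41.1 FPKM in q2 and 58.7 FPKM in q1 in the authors' deposited table, against 8.56 FPKM in q2 and 7.22 FPKM in q1 for Smad2 and Smad3.

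Smad2 was listed at 4.86 FPKM in q2 and 4.74 FPKM in q1 in the authors' deposited table. Smad4, the partner shared by both branches, was at 12.6 FPKM in q2 and 13.2 FPKM in q1 in the authors' deposited table. Both were nearly level. Smad3 was at 3.70 FPKM in q2 and 2.48 FPKM in q1 in the authors' deposited table, a log2 fold change of 0.58 (Cuffdiff p = 0.206). The inhibitory Smad6 was at 1.35 FPKM in q2 and 2.80 FPKM in q1 in the authors' deposited table, a log2 fold change of -1.05 (Cuffdiff p = 0.0981) that became -0.69 with 1 added to both values. Smad7, which blocks both branches, was at 7.09 FPKM in q2 and 8.61 FPKM in q1 in the authors' deposited table, a log2 fold change of -0.28. Smad6 and Smad3 lie 195.1 kb apart on chromosome 9 and were listed in opposite directions.

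The 4 members with the lowest p, Bmpr2, Smad5, Tgfb2 and Smad6, each hold the AU-rich heptamer TATTTAT in their longest annotated 3' UTR. AUF1 is known to bind AU-rich elements, which is why a window of 29 bases around the first match of each is shown, with the heptamer in capitals, read 5' to 3' on the strand of the transcript (GENCODE vM21, GRCm38).
Bmpr2, chr1:59871466-59871494, + strand: attacattttcTATTTATaataacttcag
Smad5, chr13:56739085-56739113, + strand: ttctgtgccatTATTTATtgcctttcaga
Tgfb2, chr1:186624932-186624960, - strand: taacagtgggtTATTTATtgtgtgttact
Smad6, chr9:63953320-63953348, - strand: tacaacgtaatTATTTATatatggtgcaa

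A match of this kind is a description of the letters and not a shown binding site. All 4 matches of Bmpr2 lie outside its deposited gene model, and 7 of the 23 tested members that hold the heptamer, Bmpr2 included, have no match inside theirs. Of the 49 tested members, 23 held TATTTAT, or 46.9%, against 29.7% of the 13060 tested genes with an annotated 3' UTR, and the 3' UTRs of the members were longer, with a median of 1570 bases against 1137 bases. Per kilobase of 3' UTR there were 0.44 matches in the members and 0.29 in all tested genes. The 23 members with a match had a median log2 fold change of -0.31, with 6 listed higher and 17 lower in q2. The 26 without one had a median of -0.06, with 11 higher and 15 lower. Their 3' UTRs were shorter, at a median of 1224 bases against 2656 bases, and the part of length in this difference was not tested. The same split was not made over all tested genes, so these counts do not show a difference particular to the members.

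The Id genes were the most abundant members, and their levels lay close together in both conditions. Their products are helix-loop-helix proteins without a DNA-binding region that hold back MyoD and other differentiation factors. Id3 was listed at 930.3 FPKM in q2 and 915 FPKM in q1 in the authors' deposited table, above 99.6% of all genes in both conditions. Id1 was at 299.97 FPKM in q2 and 238 FPKM in q1 in the authors' deposited table, a log2 fold change of 0.33 (Cuffdiff p = 0.345), and it lay higher in q2 like Id2. Id2 was at 147 FPKM in q2 and 130.2 FPKM in q1 in the authors' deposited table, a log2 fold change of 0.18 (Cuffdiff p = 0.619). Id4 was far lower, at 5.20 FPKM in q2 and 6.37 FPKM in q1 in the authors' deposited table. The Id genes together made up 64.3% of the summed level of all 64 members in q2 and 60.4% in q1, and Id3 alone 67.3% of the Id sum in q2 and 70.9% in q1. In these values the Id messages were level or listed higher in q2, except Id4, while Smad1, Smad5 and the BMP receptors upstream of them were listed lower, and none of these genes passed the test. Id1 to Id3 are also abundant in endothelial cells, and which cells their messages came from was not tested.

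Smads that carry BMP signals are known to bind GC-rich elements in target promoters, of which GGCGCC is a part, and TGF-beta Smads to bind CAGA boxes, of which CAGACA is a part. Promoters of 300 bases, 250 before and 50 after the RefSeq start (GRCm38.p6), were searched for both words on both strands. The promoters of Id2, Id3 and Bmpr2 are shown because Id2 and Id3 are among the most abundant members and Bmpr2 had the lowest p. GGCGCC and CAGACA are in capitals wherever they occur, and the sequences run 5' to 3' on the strand of the gene.
Id2, chr12:25096043-25096342, - strand: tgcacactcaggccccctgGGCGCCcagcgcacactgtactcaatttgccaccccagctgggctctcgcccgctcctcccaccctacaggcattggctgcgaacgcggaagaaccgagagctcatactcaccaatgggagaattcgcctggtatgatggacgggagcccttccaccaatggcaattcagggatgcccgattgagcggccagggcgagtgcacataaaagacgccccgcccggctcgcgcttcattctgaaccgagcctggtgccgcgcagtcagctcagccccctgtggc
Id3, chr4:136143572-136143871, + strand: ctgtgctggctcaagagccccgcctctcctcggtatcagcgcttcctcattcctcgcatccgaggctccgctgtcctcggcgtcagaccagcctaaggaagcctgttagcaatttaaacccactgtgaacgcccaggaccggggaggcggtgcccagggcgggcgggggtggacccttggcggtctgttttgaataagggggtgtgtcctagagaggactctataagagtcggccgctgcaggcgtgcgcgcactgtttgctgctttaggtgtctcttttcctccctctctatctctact
Bmpr2, chr1:59764029-59764328, + strand: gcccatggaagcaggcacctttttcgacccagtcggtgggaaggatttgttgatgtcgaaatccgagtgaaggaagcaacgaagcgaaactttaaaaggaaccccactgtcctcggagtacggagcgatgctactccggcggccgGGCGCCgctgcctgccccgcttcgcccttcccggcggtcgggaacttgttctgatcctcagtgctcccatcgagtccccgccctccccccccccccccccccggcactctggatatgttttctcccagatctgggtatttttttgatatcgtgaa

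GGCGCC occurs once in the promoters of Id2 and Bmpr2, once in that of Id4, and not in that of Id3, and CAGACA in none of these. The absence of these letters from this window says nothing about whether a Smad acts there. RefSeq promoters were matched for 46 of the 64 members, and Id1 was not among them, so its promoter was not searched. The 41 promoters of tested members came from 34 genes. Overlapping windows of Ltbp4 and of Smad5 count the same GGCGCC site more than once. Among these 41 promoters, GGCGCC was found in 34.1%, against 19.3% of the 13696 promoters of tested genes and 11.9% of all 32851. CAGACA was found in 17.1% of them, against 16.6% of promoters of tested genes and 21.0% of all. The promoters of tested members were richer in G and C, with a median of 66.3% against 60.0% over tested genes, and the part of base composition in the share of GGCGCC was not tested.

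**Figure D3:**
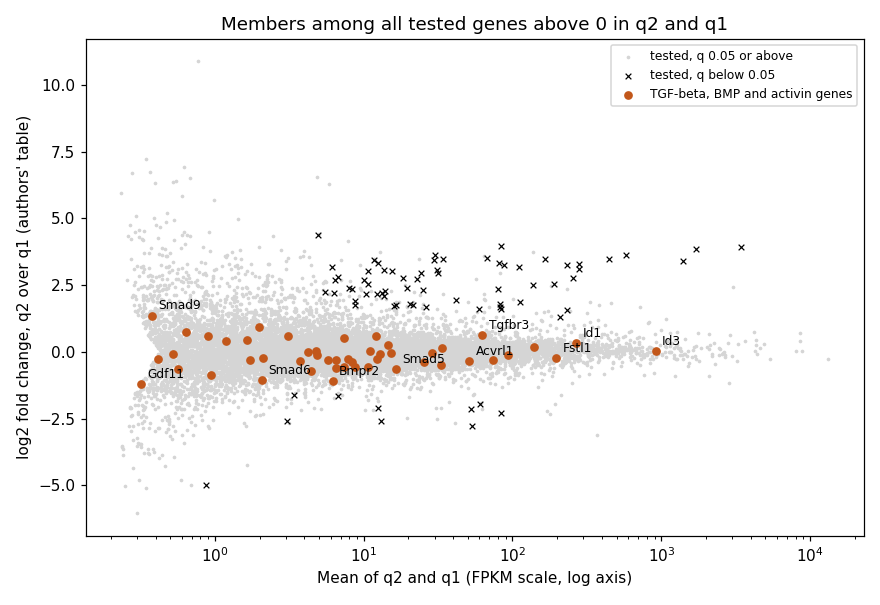
Log2 fold change of q2 over q1 against the mean of both conditions on a log axis, for all tested genes above 0 in both conditions (grey), genes called at q below 0.05 (crosses) and the members (orange), 1 point per gene, from the authors' deposited table. The members lie inside the grey cloud, from Smad9 and Gdf11 at the low end to Id3 at the high end, and none coincides with a called gene.

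The other genes of these pathways were read from lists of co-receptors and modulators, intracellular regulators and known targets, and none of them passed either. Of 106 listed genes, 105 were found, 90 were tested and 0 were called in the authors' deposited table. By the unadjusted Cuffdiff p, 5 lay below 0.05, or 5.56%, close to the 5.99% of all tested genes. Of the 90, 29 were listed higher and 61 lower in q2, with a median log2 fold change of -0.15.

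Among 33 tested co-receptors and modulators, 14 were listed higher and 19 lower in q2. Emilin1, a matrix protein that limits the processing of TGF-beta precursor, was at 4.51 FPKM in q2 and 8.92 FPKM in q1 in the authors' deposited table, a log2 fold change of -0.98 (Cuffdiff p = 0.0148, q = 0.540). Wfikkn2, which codes for an inhibitor of myostatin and GDF11, was at 0.63 FPKM in q2 and 0.15 FPKM in q1 in the authors' deposited table (Cuffdiff p = 0.0390, q = 0.772), both below 1 FPKM. By the mean of both conditions the most abundant were Dcn, Pcolce and Eng. Dcn, a proteoglycan that binds TGF-beta, was at 1407 FPKM in q2 and 1259 FPKM in q1 in the authors' deposited table. Pcolce, an enhancer of procollagen processing, was at 215 FPKM in q2 and 225 FPKM in q1 in the authors' deposited table. Dcn is also on the list of fibroblast markers.

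Among 31 tested intracellular regulators, 8 were listed higher and 23 lower in q2. Fkbp1a, whose product FKBP12 keeps type I receptors inactive, was at 151 FPKM in q2 and 228 FPKM in q1 in the authors' deposited table, a log2 fold change of -0.59 (Cuffdiff p = 0.116). Dab2, an endocytic adaptor, was at 72.3 FPKM in q2 and 105.2 FPKM in q1 in the authors' deposited table. Tgif1, a Smad co-repressor, was at 60.9 FPKM in q2 and 59.8 FPKM in q1 in the authors' deposited table, level in both. Rnf165, a ubiquitin ligase that promotes BMP signalling in neurons, had the lowest p of this list, at 0.15 FPKM in q2 and 0.82 FPKM in q1 in the authors' deposited table (Cuffdiff p = 0.0141, q = 0.526).

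Of the 3 lists the known target genes had the lowest median log2 fold change, and collagen genes had the lowest p among them. Of 26 tested targets, 7 were listed higher and 19 lower in q2, with a median log2 fold change of -0.34. Col1a2 was at 102.7 FPKM in q2 and 211 FPKM in q1 in the authors' deposited table, a log2 fold change of -1.04 (Cuffdiff p = 0.00985, q = 0.461), and it is joined in type I collagen by Col1a1. Col1a1 was at 66.1 FPKM in q2 and 127.8 FPKM in q1 in the authors' deposited table, a log2 fold change of -0.95 (Cuffdiff p = 0.0147, q = 0.539). Both differences were near a factor of 2, and neither passed. Col1a1 is also on the list of fibroblast markers, and Tagln and Acta2 on that of pericytes and smooth muscle. Of those 8 markers 3 were listed higher and 5 lower in q2, with a median log2 fold change of -0.20. Their sum was 4660 in q2 and 3596 in q1, and without Rgs5, the most abundant, 1108 in q2 and 1316 in q1. Tagln, an actin-binding protein of smooth muscle, was at 405 FPKM in q2 and 544 FPKM in q1 in the authors' deposited table. Cyr61, a matricellular gene, was at 448 FPKM in q2 and 452 FPKM in q1 in the authors' deposited table. Acta2, smooth muscle actin, was at 428 FPKM in q2 and 465 FPKM in q1 in the authors' deposited table. These 3 were the most abundant targets. Hey1, a BMP target in endothelial cells, was at 32.2 FPKM in q2 and 43.2 FPKM in q1 in the authors' deposited table. Hey1 was thus listed lower in q2, where Id1 was higher, and it was named after its values were seen.

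**Figure D4:**
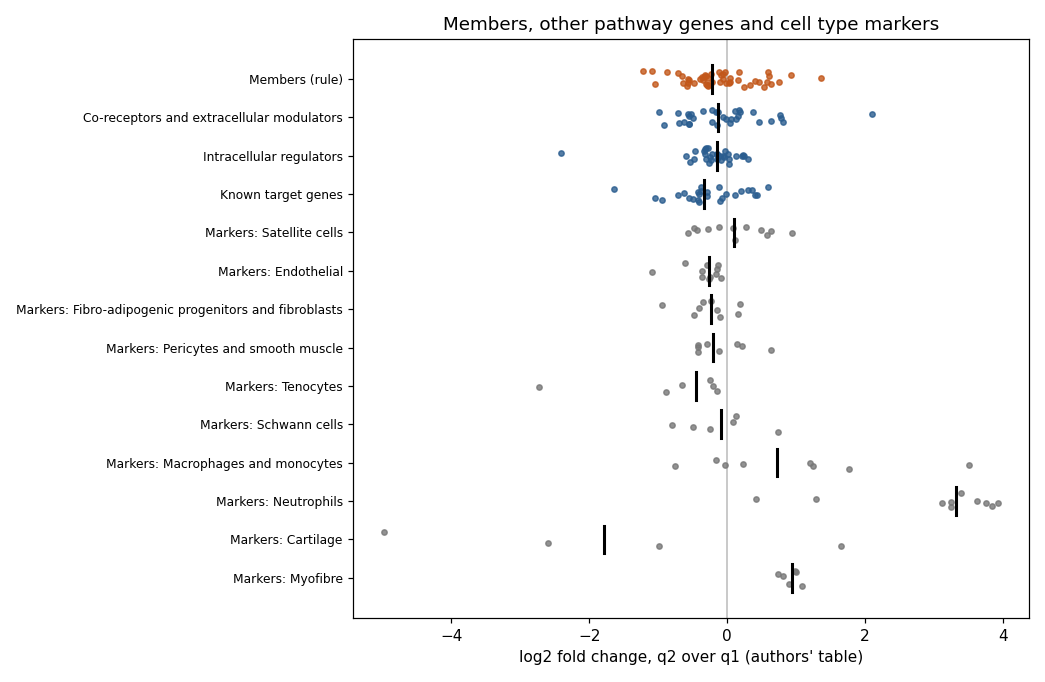
Log2 fold change of q2 over q1 from the authors' deposited table for the tested members (orange), for other pathway genes (blue) and for cell type markers (grey), 1 point per gene with finite values and a black line at each median. The medians are -0.22 for the members and -0.13, -0.15 and -0.34 for the other pathway genes, against 3.32 for neutrophil markers and -0.26 for endothelial markers.

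The 15 members that were not tested all lay below 1 FPKM in both conditions in the authors' deposited table. They were Acvr1c, Bmp10, Bmp15, Bmpr1b, Gdf1, Gdf2, Gdf5, Gdf6, Gdf7, Grem1, Inhbc, Inhbe, Ltbp2, Mstn and Nog. Bmp10 and Gdf7 were listed at 0 in both. Acvr1c, the type I receptor ALK7 of adipocytes, was at 0.36 FPKM in q2 and 0.04 FPKM in q1 in the authors' deposited table, and Gdf6, a BMP of joints, had 0.25 FPKM in q2 and 0.03 FPKM in q1. Depth is not known for these values, so a low value does not show that a gene was silent. Gdf1 shares all of its annotated exon bases with Cers1, Gdf5 40.3% with Gm15557 and Inhbc 14.4% with Gm47200. In all, 8 members share their deposited position with at least 1 other gene (Acvr1c, Gdf1, Ltbp2, Ltbp3 and the 4 named above), so these levels are uncertain.

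Several members lie beside each other in the genome (GRCm38), with nearest ends under 500 kb apart. Acvrl1 and Acvr1b are 28.8 kb apart on chromosome 15 and both were listed lower in q2. Tgfbi and Smad5 are 63.7 kb apart on chromosome 13, with log2 fold changes of -0.12 and -0.64. Acvr1 and Acvr1c are 88.7 kb apart on chromosome 2, with 5.99 FPKM in q2 and 8.87 FPKM in q1 in the authors' deposited table for Acvr1 and values below 1 FPKM for Acvr1c. Inhbe and Inhbc are 4.6 kb apart on chromosome 10, and Gdf10 and Gdf2 5.8 kb apart on chromosome 14. Of these last pairs, Gdf10 alone was tested.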

How the data were processed

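Measured was RNA from 3 AUF1-null and 3 wild-type samples. TopHat2 2.0.9 and Cufflinks 2.2.1 are named by the submitters' processing notes. The authors deposited 1 table in Cuffdiff's column layout, with 1 value per gene and condition, on the FPKM scale that Cuffdiff writes after pooling replicates; per the file headers no unit is named, and for annotation, normalization and strand nothing is given in the sources used here. The log2 fold change, a test statistic used as a score, and the p-value and q-value are also those the authors deposited. The notes name mm9, but 99.5% of 21539 genes matched by symbol overlapped their GRCm38 position, so GRCm38 is used, 1-based. The deposited q-value was recomputed with Benjamini-Hochberg over the 14858 tested genes and differed by less than 0.001. Tables were read with pandas 2.3.3, and the adjustment was tested on simulated data. A gene was called at a deposited q below 0.05. Depth is unknown. The labels do not say whether samples came from separate mice, so p-values may measure technical spread.

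The members were picked by symbol, but that rule and the lists were written with earlier results of these data known. The rule for named genes took called members, members with p below 0.05, the 4 highest of each role and the 3 largest differences each way among those of at least 1 FPKM. Of each pathway list it took called genes, those with p below 0.05 and the 3 highest. Other members were named after their values were seen, and some listed genes are counted but not reported here by name. 3' UTRs and gene positions came from GENCODE vM21, promoters from RefSeq. Alternatives were other thresholds, low-value filters, pseudocounts of 0.1 and 1, centring and the motif ATTTA.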

Additional observations from a re-analysis of the deposited data

How the results depend on the processing

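No paired analysis was possible because each condition has 1 pooled value per gene, and for the same reason no replicate could be left out. The count of 0 members called by Cuffdiff did not change at a q below 0.1 or with at least 1 FPKM in the higher condition or in both, with p-values adjusted again; with no adjustment it was 1 at a p below 0.05 and 0 at a p below 0.01. For the other pathway genes the count was also 0 at a q below 0.1, and 5 with no adjustment. The number of members listed higher in q2 was 17 of 49, also 17 under both pseudocounts, and 18 after centring. With at least 1 FPKM in the higher condition it was 15 of 43. The median log2 fold change of the tested members, -0.22, was -0.12 with a pseudocount of 1 and -0.21 after centring on all tested genes. That of the other pathway genes was -0.13 with a pseudocount of 1, against -0.15. No member taken by the rule for named genes changed sign under either pseudocount or centring; Ltbp3, which was level, crossed 0 after centring. With ATTTA in place of TATTTAT, 40 tested members held the motif instead of 23, since ATTTA lies within TATTTAT. These were 81.6% of the tested members, against 69.3% of all tested genes with an annotated 3' UTR. The lack of values per sample limits every comparison, and a difference under 2.50-fold was called for no gene above 0 in both conditions.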
